A study of Mus musculus with 8 samples.

Results

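Secreted antagonists of Wnt signalling and effectors of the pathway were followed in the hypothalamus of inbred mice that differed in weight gain. The 8 genes were Sfrp1, Sfrp2, Sfrp5, Frzb, Dkk3, Wif1, Nkd1 and Lef1, chosen by name as Wnt pathway genes tied to adiposity and read through the probes annotated to exactly 1 gene. Of the 8 genes, 7 had such a probe and Nkd1 was not analysed here. The Sfrp1 probe had no value on any array, so 6 genes had measured values, out of 13840 genes with a probe of their own on the array. RNA came from male C57BL/6J mice given a high-fat diet for 6 weeks, a low-fat diet for 2 weeks and the high-fat diet again for 6 weeks. In the study's experiment on this schedule, the low-fat diet was restricted below what each mouse had eaten before. High gainers put on much weight and low gainers little weight on these same diets, and the labels name no genotype beyond the strain. Each group was 1 RNA pool made from 20 mice and read on 4 arrays, so the arrays of a group are technical replicates. Every p-value below sets the difference between 2 pools against the spread between arrays and says nothing of the spread between mice.

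Wnt proteins are secreted signals that bind frizzled receptors with LRP co-receptors. In the canonical branch the signal stops a destruction complex, built on Axin and Apc, from marking beta-catenin for breakdown, and beta-catenin then acts with LEF/TCF factors on target genes. Secreted frizzled-related proteins (Sfrp1, Sfrp2, Sfrp5 and Frzb) and Wif1 bind Wnt ligands outside the cell, Nkd1 acts inside it on dishevelled, and Lef1 is one of the DNA-binding partners of beta-catenin. Dkk3 belongs to the dickkopf family by sequence, but unlike Dkk1 its action on the pathway differs between settings. Wnt signals hold back fat cell formation in culture, and in the brain Lef1 and its relatives take part in the development of the hypothalamus and thalamus. The comparison asks whether genes of this kind, which the study examined in adipose tissue, also differ in the hypothalamus of high and low gainers.

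Low gainer array 2 stood apart from the rest. Its log2 intensities correlated across probes with the mean of the other arrays at an r of 0.239, against 0.967 to 0.990 for each of those 7 arrays with the mean of the remaining 6, so it is shown apart and enters no mean. Among the 11169 probes with a value on the 7 other arrays, 3 passed an adjusted p of 0.05 (limma, Benjamini-Hochberg), all higher in the high gainer pool. They were the pituitary hormone genes Gh, Cga and Prl. The same 3 genes were the only anterior pituitary markers with a value on all 7 arrays, so their sums repeat this result. They summed to intensities of 8.30 to 10.4 on high gainer arrays and 0.837 to 1.38 on low gainer arrays. The other pituitary markers with a probe, 5 of 8, lacked a value on some or all arrays. Among them Lhb, read on 3 high and 2 low gainer arrays, had a fitted log2 difference, high minus low gainer, of -0.06 (limma, allowing empty cells). Of 14 hypothalamic markers with a probe, 11 had a value on all 7 arrays and Nkx2-1 had none. The 11 summed to 40.4 to 47.8 on high gainer arrays and 45.2 to 55.9 on low gainer arrays, with Sst the brightest. Of their log2 differences, high minus low gainer, 10 were below 0, as were 50.4% of all probes. The median was -0.23, and 0 passed the adjusted threshold. Oligodendrocyte markers summed to 46.0 to 73.4 on high gainer arrays and 11.9 to 40.4 on low gainer arrays, over the 5 of 6 genes with a value on all 7 arrays. Mbp made up most of these sums, and the other 4 genes summed to 3.93 to 6.72 on high gainer arrays and 2.19 to 5.32 on low gainer arrays, which overlap. All 5 log2 differences were above 0, as were 49.6% of all probes, with a median of 0.52, and 0 passed the adjusted threshold. Mag was at 1.36, with every high gainer value above every low gainer value, as for 1.99% of all probes. The part of these neighbouring cell types in the results below was not tested, and fewer cells of a type cannot be told apart from less RNA per cell.

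Promoter windows of RefSeq (build GRCm38.p6), 250 bases before and 50 bases after an annotated start, were held for 6 of the 8 genes, in 9 windows. They were searched on both strands for the LEF/TCF-type sequences CTTTGAT as well as CTTTGAA, then also CTTTGTT along with CTTTGTA, the kind of site that the Lef1 protein binds. One such sequence, TACAAAG, which is the reverse complement of CTTTGTA, began at position -147 relative to the start in 1 of the 4 windows of Lef1 itself. This window, at chr3:131156044-131156343 on the plus strand, is that of the start furthest downstream of the 4. The Lef1 windows that begin at 131110047 and 131110073 overlap over most of their length, so they are not separate sequences. The match was in 1 of 9 windows, and 16.9% of all 32851 windows searched held at least 1 of the 4 sequences. The window is shown because it is the only one of the 9 with a match and because Lef1 had the largest difference between pools among the 8 genes. Capitals mark the match.
Lef1: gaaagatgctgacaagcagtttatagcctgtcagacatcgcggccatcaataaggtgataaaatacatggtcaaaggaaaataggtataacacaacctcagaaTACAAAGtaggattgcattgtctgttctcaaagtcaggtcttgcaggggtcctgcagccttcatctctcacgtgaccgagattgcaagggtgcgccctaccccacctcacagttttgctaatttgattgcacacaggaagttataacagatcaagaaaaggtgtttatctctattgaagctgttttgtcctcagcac
The window of Sfrp5, at chr19:42202203-42202502 on the minus strand, is shown because Sfrp5 was one of the genes the study followed in fat. Capitals mark its 15 CpG dinucleotides, a cytosine followed by a guanine, and it held none of the LEF/TCF-type sequences.
Sfrp5: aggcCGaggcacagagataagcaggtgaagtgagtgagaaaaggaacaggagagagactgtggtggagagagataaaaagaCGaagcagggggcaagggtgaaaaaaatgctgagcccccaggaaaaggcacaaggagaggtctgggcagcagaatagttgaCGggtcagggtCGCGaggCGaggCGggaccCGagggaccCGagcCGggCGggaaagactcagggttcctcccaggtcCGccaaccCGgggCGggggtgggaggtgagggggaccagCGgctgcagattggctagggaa
The other windows of secreted antagonists held 25 CpG dinucleotides (Wif1), 22 (Sfrp2) and 20 (Frzb), against a median of 7 and quartiles of 3 and 20 over all windows. The Nkd1 window held 6, and the 4 Lef1 windows held 18, 21, 8 and 5. These counts describe the sequence only, as neither methylation nor factor binding was measured.

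Whether a value had been deposited at all separated the genes before any comparison. Sfrp2, Frzb, Dkk3, Wif1 and Lef1 had a value on all 7 arrays, Sfrp5 on 6 of them and Sfrp1 on none. In share, 71.4% of the 7 genes with a probe had a value on all 7 arrays, against 44.6% of all genes with a probe. On low gainer array 2 only Dkk3 and Lef1 had one. The percentile of a value among all values of its own array gives its place there. Sfrp2 lay at percentiles 67.8 to 80.0, in the upper part of every array, and Dkk3 (26.5 to 60.2) and Lef1 (25.1 to 57.8) lay in the lower and middle part. Frzb (0.472 to 17.9), Sfrp5 (6.21 to 21.3) and Wif1 (1.26 to 34.7) lay near the bottom of the values on most arrays. Intensities depend on the probe as well as on the transcript, so no gene's level is set against another's.

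**Figure D1:**
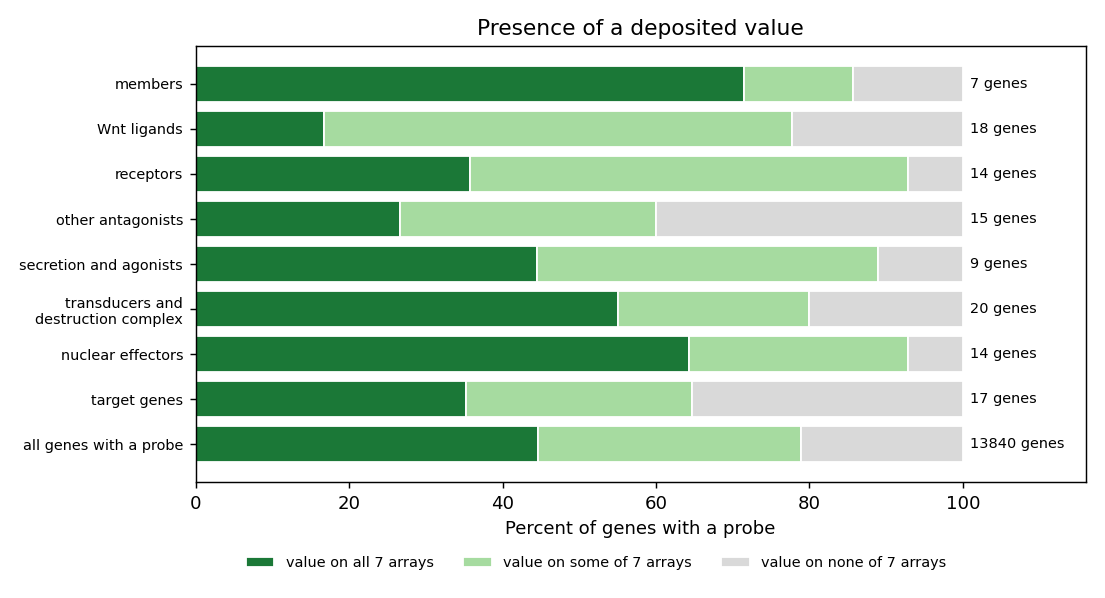
Percent of the genes with a probe that had a deposited value on all 7 arrays (dark green), on some of them (light green) or on none (grey), for the 8 genes described here (members), for 7 lists of other Wnt pathway genes and for all genes, with the number of genes with a probe at the right. Of the 7 members with a probe 71.4% had a value on all 7 arrays, against 16.7% of the Wnt ligands and 44.6% of all genes.

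Among the secreted frizzled-related proteins, Sfrp2 had intensities of 3.08, 2.50, 3.90 and 3.51 on high gainer arrays 1 to 4, against 3.16, 2.24 and 1.96 on low gainer arrays 1, 3 and 4. High gainer array 3 was highest and low gainer array 4 lowest, and the groups overlapped because low gainer array 1 lay within the range of the high gainer arrays. Sfrp2 averaged 3.24 ± 0.600 (SD, n = 4) in the high gainer pool and 2.45 ± 0.631 (SD, n = 3) in the low gainer pool. After quantile normalization the log2 difference, high minus low gainer, was 0.41 with a 95% interval of -0.07 to 0.90 (limma adjusted p = 0.790), which corresponds to between 0.951-fold and 1.86-fold.

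Sfrp5, which binds Wnt ligands such as Wnt5a, had intensities of 0.237, 0.270, 0.187 and 0.192 on high gainer arrays 1 to 4, against 0.148 and 0.147 on low gainer arrays 1 and 4. Low gainer array 3 had no value. All 4 high gainer values were above both low gainer values as deposited, as for 3.30% of the 14082 probes with at least 2 values in each group. The separation did not survive quantile normalization, after which the groups overlapped. The mean was 0.221 ± 0.0393 (SD, n = 4) in the high gainer pool and 0.147 ± 0.000712 (SD, n = 2) in the low gainer pool. Fitted over these probes, with 4 high and 2 low gainer arrays, the log2 difference was 0.36 with a 95% interval of -0.41 to 1.13 (limma adjusted p = 0.959). The intensities lay near the low end of each array, and the empty cell on low gainer array 3 entered the fit as missing, not as a low value.

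Frzb, the secreted frizzled-related protein also called Sfrp3, had intensities of 0.135, 0.202, 0.140 and 0.148 on high gainer arrays 1 to 4, against 0.235, 0.109 and 0.171 on low gainer arrays 1, 3 and 4. The highest and the lowest value both came from the low gainer pool, so the high gainer range lay inside the low gainer range. Means were 0.156 ± 0.0311 (SD, n = 4) in the high gainer pool and 0.172 ± 0.0627 (SD, n = 3) in the low gainer pool. The log2 difference was -0.14 with a 95% interval of -0.87 to 0.59 (limma adjusted p = 0.963). It was the only one of the 6 differences below 0.

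Wif1, which binds Wnt ligands through a domain unlike that of frizzled, had intensities of 0.191, 0.278, 0.232 and 0.384 on high gainer arrays 1 to 4, against 0.236, 0.136 and 0.176 on low gainer arrays 1, 3 and 4. High gainer array 4 was highest and low gainer array 3 lowest, with overlap between 0.191 and 0.236. The high gainer pool averaged 0.271 ± 0.0829 (SD, n = 4) and the low gainer pool 0.183 ± 0.0504 (SD, n = 3). The log2 difference was 0.50 with a 95% interval of -0.21 to 1.20 (limma adjusted p = 0.827).

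Dkk3 had intensities of 0.735, 1.25, 0.412 and 0.571 on high gainer arrays 1 to 4, against 0.314, 0.640 and 1.07 on low gainer arrays 1, 3 and 4. The arrays of each pool differed widely among themselves, by 3.02-fold between the highest and lowest high gainer arrays and by 3.42-fold between low gainer arrays, the widest spread of the 6 genes in both pools. Means were 0.741 ± 0.361 (SD, n = 4) in the high gainer pool and 0.676 ± 0.381 (SD, n = 3) in the low gainer pool. The log2 difference was 0.14 with a 95% interval of -0.71 to 0.98 (limma adjusted p = 0.968), and leaving out high gainer array 2 or low gainer array 1 turned it to -0.14 and -0.34. On low gainer array 2, the array that stood apart, Dkk3 read 5.34.

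Lef1 had intensities of 1.24, 1.02, 0.894 and 0.620 on high gainer arrays 1 to 4, against 0.460, 0.404 and 0.765 on low gainer arrays 1, 3 and 4. On high gainer arrays 1, 2 and 3 it was above every low gainer value, and high gainer array 4 lay below low gainer array 4, so the groups overlapped. Means were 0.944 ± 0.259 (SD, n = 4) in the high gainer pool and 0.543 ± 0.194 (SD, n = 3) in the low gainer pool. The log2 difference was 0.77 with a 95% interval of 0.19 to 1.35, or 1.71-fold with an interval of 1.14 to 2.56. The unadjusted limma p was 0.0131, the 173rd smallest of 11169 probes, and the adjusted p was 0.750. A difference at least as large in either direction was found for 1.44% of these probes. On low gainer array 2, the array that stood apart, Lef1 read 0.719, within the range of the other low gainer arrays and also within that of the high gainer arrays.

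**Figure D2:**
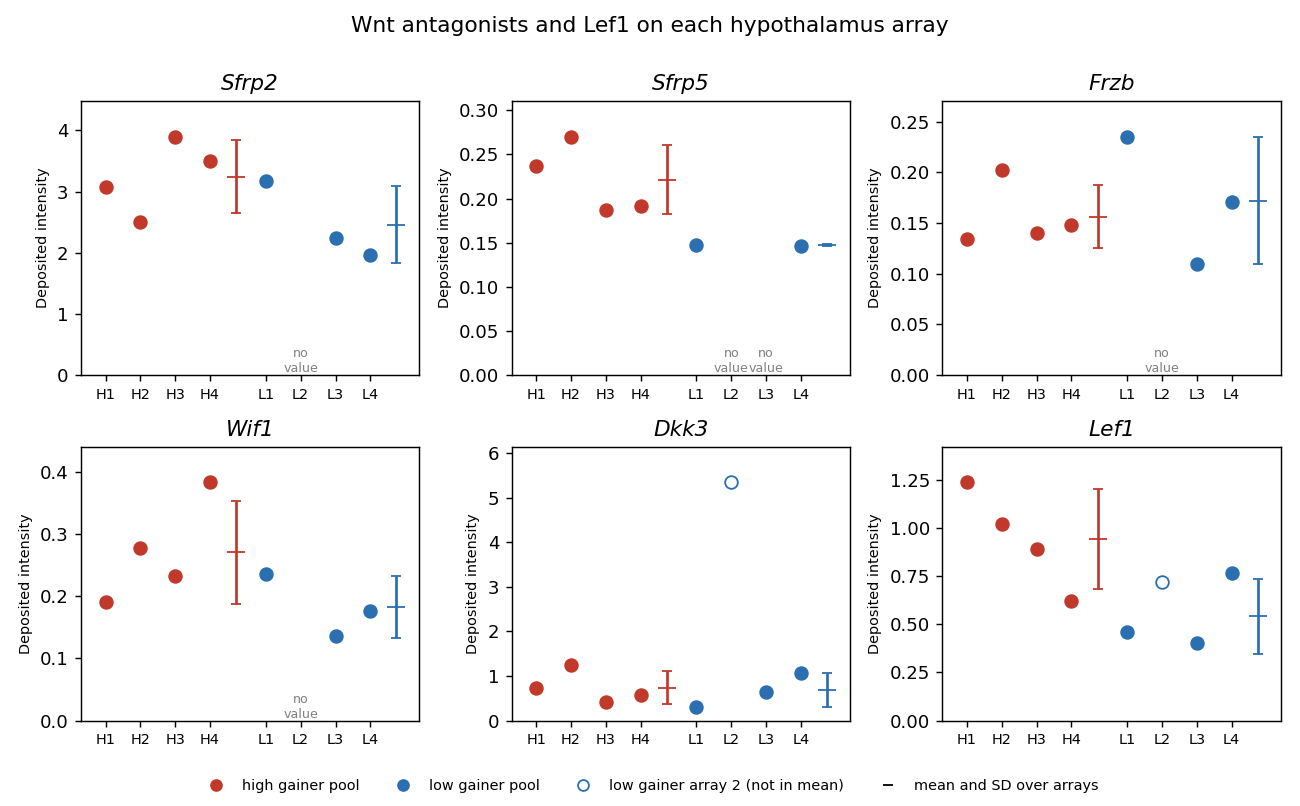
Deposited intensity (linear scale, from 0, a separate axis for each gene) of 6 Wnt genes on high gainer arrays H1 to H4 (red) and low gainer arrays L1 to L4 (blue), with bars for the mean and SD over arrays, the open circle for low gainer array 2 and "no value" for an empty cell. The groups overlap for all but Sfrp5, where the 2 low gainer values of 0.148 and 0.147 lie below the 4 high gainer values.

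Over the genes, 0 of the 5 with a value on all 7 arrays passed the adjusted p of 0.05 in limma, where 0.0269% of all probes were higher and 0% lower. Allowing empty cells, 0 of 6 passed, against 0.0213% of probes higher and 0% lower. At an unadjusted p under 0.05, Lef1 was the only one of the 5, higher in the high gainer pool as were 3.07% of all probes. Of the 5 differences 4 were above 0, as were 49.6% of all probes, and their median was 0.41 on the log2 scale against -0.0024 over all probes. Of the 6 differences with empty cells allowed, 5 were above 0, as were 49.2% of probes. Only the interval of Lef1 left out 0, and intervals for the other genes still held differences of more than 1.5-fold. An adjusted p above the threshold therefore does not show that their levels were alike.

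**Figure D3:**
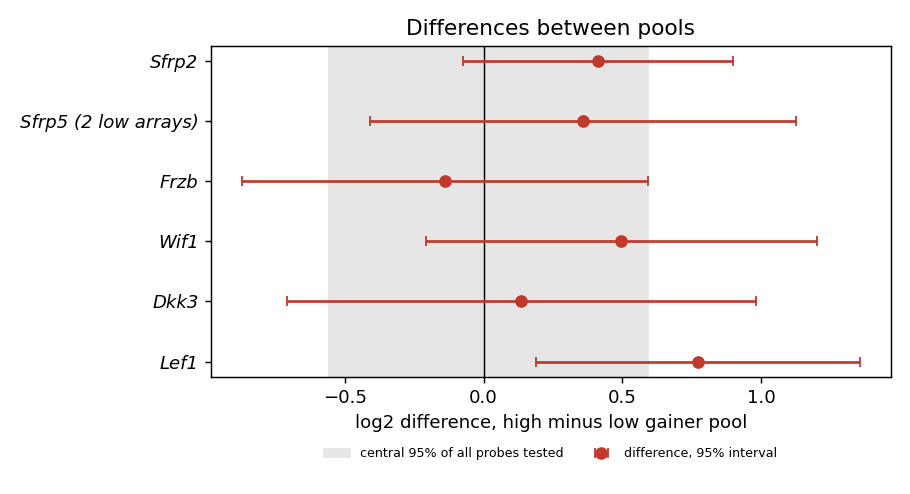
log2 difference in intensity, high minus low gainer pool, for each gene (points) with its 95% interval (bars) from limma, and the central 95% of differences over all probes with a value on all 7 arrays (grey, -0.56 to 0.59). Lef1, at 0.77, lies outside the grey band with an interval of 0.19 to 1.35, while the other 5 intervals include 0 (Sfrp5 rests on 4 high and 2 low gainer arrays).

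The genes did not move together from array to array. Over the 7 arrays, Pearson's r of normalized log2 intensity between pairs of the 5 genes ran from -0.75 (Sfrp2 and Dkk3) to 0.49 (Sfrp2 and Wif1), as a description over arrays of only 2 RNA pools. Lef1 had an r of 0.39 with Dkk3 and 0.13 with Sfrp2. The named genes most like each of them, among 6331 probes searched, were Arsa (r = 0.99) and Scn8a (0.97) for Lef1, Gpr34 (0.99) and Pfkp (0.99) for Sfrp2, and Cacna2d1 (0.97) and Bnip3 (0.92) for Wif1. For Dkk3 they were Mettl25 (r = 1.00) and Pigq (0.98), and for Frzb Cep83 (0.95) and Mpdu1 (0.92). With 7 arrays and this many probes, such values are a description of these arrays.

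Lef1 is a gene also active in lymphocytes, thalamus and endothelium. The marker sums that separated the pools, given above, were higher on high gainer arrays. They were those of anterior pituitary (Gh, Cga and Prl, the same genes that passed the adjusted threshold) and of oligodendrocytes. The latter were made up mostly of Mbp, with all 5 genes above 0. No part of any cell type in the Lef1 difference was tested. Levels of lymphocyte, thalamic, endothelial and adipocyte markers were as follows. Of 6 lymphocyte markers with a probe, Cd3e, Cd3d, Cd79a and Ptprc had no value on any of the 7 arrays and none had a value on all of them. The 4 of 5 thalamic and habenular markers with a value on all 7 arrays summed to 23.1 to 25.9 on high gainer arrays and 21.9 to 27.1 on low gainer arrays. The 4 of 7 endothelial markers with such values summed to 9.28 to 11.9 on high gainer arrays and 9.37 to 12.1 on low gainer arrays. Of 6 adipocyte markers with a probe, 0 had a value on all 7 arrays, and Fabp4 and Pparg had none on any of these arrays.

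The rest of the pathway was read from lists of 125 other genes, of which 40 had a value on all 7 arrays. In limma 0 of the 40 passed the adjusted p of 0.05, with 0.0269% of all probes higher, and the smallest adjusted p was 0.750. Of these 40 genes 21 were above 0 and 19 below, with a median log2 difference of 0.0074. At an unadjusted p under 0.05, Sox9, Wnt2, Ccnd1 and Tle5 lay above 0 and Cby1 below, against 3.07% of all probes higher and 3.41% lower.

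Of the 7 lists, Wnt ligands were the least often measured, with 3 of 18 genes with a probe having a value on all 7 arrays. Wnt2, a canonical ligand, had intensities of 0.761, 0.788, 0.617 and 0.832 on high gainer arrays 1 to 4, against 0.573, 0.444 and 0.474 on low gainer arrays 1, 3 and 4. Every high gainer value was above every low gainer value, as for 1.99% of all probes. The log2 difference was 0.53 with a 95% interval of 0.04 to 1.02 (limma adjusted p = 0.756). Wnt3 and Wnt4 had differences of -0.38 and -0.12. Of the receptors and co-receptors, 5 of 14 were measured on all 7 arrays, with a median of -0.09, from Ptk7 at -0.25, Fzd2 at -0.19 and Ryk at -0.09 to Fzd1 at 0.04.

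Antagonists other than the 8 genes had a value on all 7 arrays for 4 of 15 genes, and 6 of the 15, among them Dkk1, had none on any of these arrays. Sostdc1, a secreted inhibitor of BMP and Wnt signals, had a difference of 0.35 (limma adjusted p = 0.793), with 11.1 ± 1.59 (SD, n = 4) in the high gainer pool and 9.08 ± 2.92 (SD, n = 3) in the low gainer pool. Rnf43, a ligase that removes frizzled from the cell surface, was at -0.07, the deacylase Notum at 0.04 and Apcdd1 at 0.03. Sfrp4, the remaining secreted frizzled-related protein, was read on 4 arrays of the high and 2 of the low gainer pool, at means of 0.215 and 0.216 in the high and the low gainer pool, with a fitted difference of -0.08 (limma, allowing empty cells). Of the genes for secretion and agonists, Tspan12, a co-activator of the receptor Fzd4, was at 0.37 (limma adjusted p = 0.787), Rspo1 and Lgr5 at 0.18 each and Porcn, which acylates Wnt proteins, at -0.03.

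Genes that carry the signal inside the cell lay on both sides of 0. Of 11 measured transducers and destruction complex genes, 6 were above 0 and 5 below, with a median of 0.0084. Fbxw11, the F-box protein that marks beta-catenin for breakdown, was at -0.34 (limma adjusted p = 0.784), while Ctnnb1, the gene of beta-catenin, was at 0.16, Csnk1g2 at 0.15 and Axin1 at 0.14. The 2 probes of Gsk3b, a kinase of the destruction complex, disagreed. The brighter one was at 0.0084 and the dimmer at 0.66 (limma adjusted p = 0.752), a gene singled out after its values were seen.

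Among nuclear effectors, Cby1, which binds beta-catenin and holds it back from LEF/TCF factors, had intensities of 0.415, 0.611, 0.456 and 0.505 on high gainer arrays 1 to 4, against 0.732, 0.709 and 0.693 on low gainer arrays 1, 3 and 4. All high gainer values were below all low gainer values, as for 2.44% of all probes, and the log2 difference was -0.59 with a 95% interval of -1.09 to -0.09 (limma adjusted p = 0.750). Tle5, a short relative of the Groucho co-repressors, was at 0.57 (limma adjusted p = 0.756), Ctbp2 at 0.21 and Tcf7l1, a repressive TCF factor, at -0.17. The median over the 9 measured nuclear effectors was -0.06.

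All 6 genes of the target list with a value on all 7 arrays were above 0, with a median of 0.11, where 49.6% of all probes were above 0. Of these genes, Notum and Lgr5 were also counted in the lists of antagonists and of agonists above. Allowing empty cells, 7 of 8 target genes were above 0, as were 49.2% of probes. The median of 0.11 rested on single arrays, at 0.35 without low gainer array 1 and -0.027 without low gainer array 4. Sox9, a transcription factor of glia and progenitors, had intensities of 0.658, 0.587, 0.664 and 0.452 on high gainer arrays 1 to 4, against 0.366, 0.164 and 0.413 on low gainer arrays 1, 3 and 4. Every high gainer value was above every low gainer value, as for 1.99% of all probes, and the log2 difference was 0.97 with a 95% interval of 0.29 to 1.65 (limma adjusted p = 0.750). Ccnd1, which encodes cyclin D1, was at 0.60 (limma adjusted p = 0.756) with overlapping groups. Without low gainer array 1 it was at 1.03 and passed (limma adjusted p = 0.0261), where 94 of 11247 probes passed higher and 77 lower. Lgr5 was at 0.18 and Nrcam, an adhesion protein, at 0.05. Axin2, the target most often used as a reporter of canonical signalling, had no value on any of the 8 arrays. The study reported on further genes in fat, of which only some with a probe are given here. Mest was at 0.11 with a 95% interval of -0.36 to 0.57 (limma adjusted p = 0.955). It averaged 1.14 ± 0.178 (SD, n = 4) in the high gainer pool and 1.05 ± 0.219 (SD, n = 3) in the low gainer pool. Among these 7 arrays, Wnt5a had a value on 2 high gainer arrays and Bmp3 on 1 low gainer array. Wnt10b had a value on 2 high and 3 low gainer arrays, with a fitted difference of 0.30 (limma, allowing empty cells, adjusted p = 0.966). Wnt2, also among these genes, is described above.

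**Figure D4:**
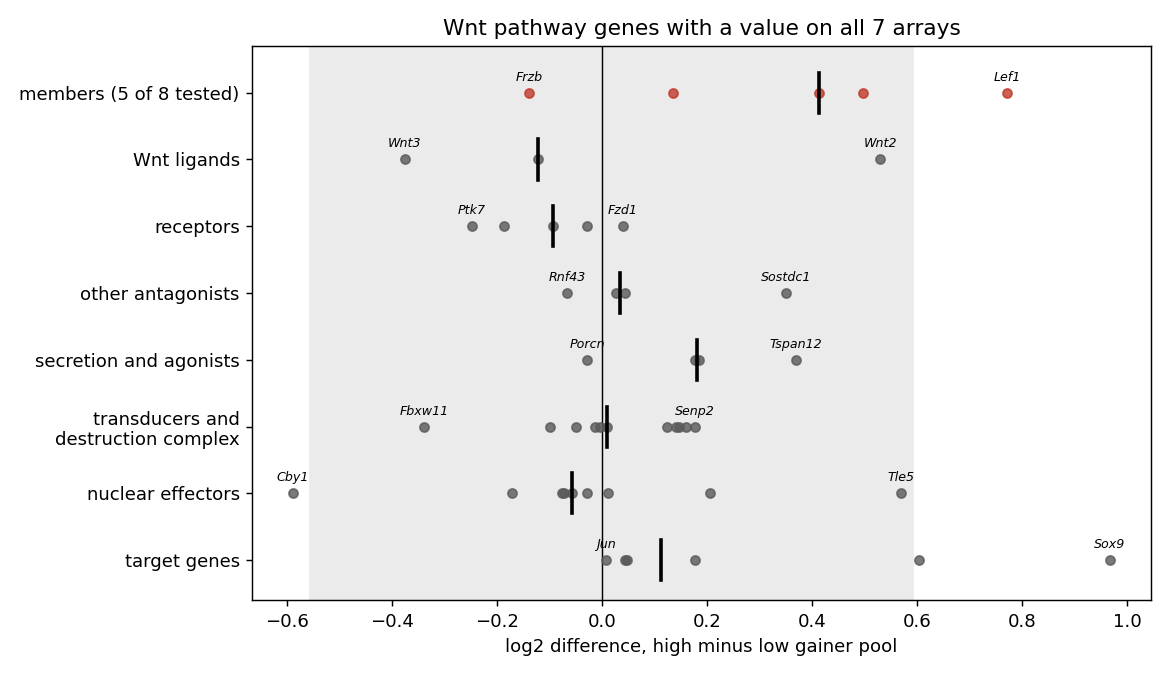
log2 difference in intensity, high minus low gainer pool, of each gene with a value on all 7 arrays (points), in rows for the members described here and 7 pathway lists, with the median of each row (black bar), the lowest and highest gene named and the central 95% of all probes (grey, -0.56 to 0.59). Lef1 (0.77), Sox9 (0.97), Ccnd1 (0.60) and Cby1 (-0.59) lie outside the grey band.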

How the data were processed

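RNA of 2 pools was measured on 1-colour Applied Biosystems arrays read by chemiluminescence. The deposited values are linear intensities that the authors normalized across arrays, by a quantile method per the study's methods, and many cells are empty. The study took a feature as detected by its signal-to-noise ratio and quality flag. Whether that rule emptied the cells is not given in the sources used here. Medians of the deposited values ran from 0.714 to 0.990 over the 7 arrays compared and were 1.05 on low gainer array 2. They cover differing sets of probes, so they do not show whether the arrays still differed in scale. Intensities were put on a log2 scale and quantile-normalized again within the set of probes that held a value on each of the 7 arrays. They were fitted with limma 3.58.1 in R 4.3.3 (eBayes with a trend, Benjamini-Hochberg, threshold 0.05). A second fit took probes with at least 2 values per group. Between 13657 and 16873 of 33012 probes had a value on an array, and precision is limited by how few arrays there were. Groups came from the sample labels. Of the probes, 14411 named 1 gene in the platform annotation, 247 several and 18354 none here, and only the first were used by name. No background signal was used.

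The 8 genes, the pathway and marker lists, the tests and the omission of low gainer array 2 were chosen with earlier results of these data known. Named were the 8 genes, up to 4 genes of each pathway list with the smallest p (brightest probe), the 2 genes most like each of the 5 tested, and, for cell types, counts and summed intensities. Sfrp4, Dkk1, Axin2, Wnt5a, Wnt10b, Mest, Bmp3, Mag, Lhb, the second Gsk3b probe and the cell type markers named as empty fall outside that rule. They were named after their values were seen. Markers of 12 cell types were read. For lists not described in the report, the median log2 difference was -0.33 for choroid plexus (5 genes, 0 above 0, brightest Ttr), 0.016 for astrocytes (2 of 4 above 0, brightest Gjb6), -0.16 for meninges (1 of 4, brightest Dcn), 0.028 for tanycytes (3 of 3, brightest Crym) and 0.17 for cortex and striatum (6 of 7, brightest Ppp1r1b), with 0 genes past the adjusted threshold. The procedure was tested on simulated data. Alternatives were all 8 arrays, leaving out each array, other normalizations, a brightness filter, a pseudocount, no trend, a block for the replicate number, weights for arrays, a filter of 3 values per group and the methods' t-test.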

Additional observations from a re-analysis of the deposited data

Results flagged for a closer look

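The Dkk3 intensity on low gainer array 2 was 5.34, far above the other low gainer arrays at 0.314, 0.640 and 1.07, and was singled out as a sample distant from the rest of its group. It was 7.21 times the high gainer mean and 7.91 times the mean of the other low gainer arrays. Across probes that array correlated with the other 7 arrays one by one at an r between 0.228 and 0.253, and its part in this value was not tested. Chance alone singles out a small share of groups by such a rule, and 8 groups of 4 values were examined.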

How the results depend on the processing

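No alternative brought any of the 6 genes past the adjusted threshold. Lef1 stayed above 0 in 16 settings, at 0.48 to 0.98 on the log2 scale with adjusted p between 0.279 and 0.999, Sfrp2 in 16 (0.22 to 0.62), Wif1 in 15 (0.25 to 0.70) and Sfrp5 in 14 (0.18 to 0.57). Among these settings, the fit without a trend, the methods' t-test and the brightness filter leave the difference itself unchanged. Its sign could not turn there. Dkk3 turned to -0.76 with all 8 arrays, -0.14 without high gainer array 2, -0.34 without low gainer array 1 and -0.14 with the replicate block. Frzb turned to 0.088 without low gainer array 1 and 0.012 with array weights. With 1 array left out, Dkk3 ranged from -0.34 to 0.49 and Frzb from -0.50 to 0.088. The 3 probes passing in the complete comparison became 1 with all 8 arrays, 1 among the brightest 50% of probes and 0 in the methods' t-test (9 higher and 10 lower at that test's own threshold). They ranged from 2 to 171 when 1 array was left out, the 171 without low gainer array 1. Allowing empty cells, the 3 became 1, 1 and 0 in the same settings and ranged from 2 to 138, the 138 again without low gainer array 1. Of the other pathway genes 0 passed, and 0 to 1 when 1 array was left out, the 1 being Ccnd1 without low gainer array 1. Of 125 recomputed list medians 9 moved by more than the spread. Over all settings they ran from -0.34 to 0.0074 (ligands), -1.06 to 0.0051 (receptors), -0.34 to 0.19 (other antagonists), 0.089 to 1.40 (secretion and agonists), -0.045 to 0.46 (transducers), -0.058 to 0.33 (nuclear effectors) and -0.027 to 0.35 (targets).

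With the replicate number as a block, 9 probes passed in the complete comparison (5 higher, 4 lower). The numbers did not pair the arrays, as deviations of same-numbered arrays correlated at -0.20, 0.13 and -0.14, and not every array correlated best with its own number. Sfrp5 could not be fitted without low gainer array 1 or 4, which leaves 1 low gainer value, and Sfrp2 was the only one of the 6 genes among the brightest 50% of probes. Low signal, as for Frzb, Sfrp5 and Wif1 near the bottom of most arrays, limits what these differences can show.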
